A study of Rattus norvegicus with 18 samples.

Results

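The genes described are 53 rat cell cycle and DNA replication genes, from the D cyclins that open G1 to the motors of cytokinesis. They were taken from a list of 57 named genes as the rows of the deposited expression table whose 6 group values average 1 FPKM or more. FPKM counts sequenced fragments per kilobase of transcript, scaled to the number of fragments mapped. All 53 named genes that the table holds passed that minimum, and Kif4a, Cenpe, Anln and E2f8 were not analysed here. The whole table has 17312 genes, of which 10545 passed. The cells were neonatal rat ventricular myocytes, heart muscle cells cultured from ventricles of Sprague-Dawley pups at day 2, plated in serum and then kept without it. They received vehicle or SR9009, a synthetic agonist of the repressive nuclear receptors REV-ERBα and REV-ERBβ, for 24 h. Phenylephrine (PE), an agonist of α1-adrenergic receptors that makes cultured myocytes hypertrophic, then followed for 0, 4 or 48 h. The 6 groups are vehicle at 0, 4 and 48 h of PE and SR9009 at 0, 4 and 48 h of PE, with 3 libraries each (18 in all). No dose is given in the sources used here, and every group sampled at 4 or 48 h had received PE, so its effect and that of longer culture cannot be told apart.

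Cells enter a division cycle when D cyclins with Cdk4 or Cdk6, and then E cyclins with Cdk2, relieve the retinoblastoma family's hold on E2F transcription factors. E2F targets supply the machinery of S phase: the MCM helicase that licenses origins, polymerases, primase, and the enzymes that make deoxynucleotides. Later, Mybl2 and Foxm1 raise the genes of G2 and mitosis, which build the spindle, separate chromosomes and split the cell. Ventricular myocytes leave the cycle soon after birth, often through a last round that copies DNA and divides the nucleus without dividing the cell.

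Each gene has a single FPKM per group, which the authors derived from 3 libraries, each with confidence bounds below and above it. No standard deviation, test or p-value between groups could be computed, and the labels do not say whether the 3 libraries came from separate cultures. Differences below are of log2(FPKM + 1), and the range after each is the widest span the authors' bounds permit. "Higher" and "lower" are used only of a gene that differs by 1 or more with a span that leaves out 0, a rule of size and not a test. For the 53 genes the median half-width of the bounds was 14.8% of the value in vehicle at 48 h and 16.8% with SR9009 at 4 h, the ends of the range over groups. The sum of FPKM over all genes ran from 609018 (vehicle, 0 h) to 710198 (vehicle, 48 h), and depth is unknown. Values of 4 genes are uncertain because the table gives them 1 locus together with other rows: Cdk4 with March9 and Tspan31, Mcm7 with 3 microRNAs, Kif20a with Cdc23, and Ccnb2 with Akap7. The Ccnb2 locus, 121.707 kb long, also lies on another chromosome than the RefSeq gene of that name.

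The cultures carried the markers of cardiomyocytes. Summed over 8 such genes, among them the troponin Tnnt2 at 2652 FPKM in vehicle at 0 h, the level was between 8570 and 15426 FPKM in the 6 groups. Transcripts that mark other cell types were measured too. Fibroblast markers (10 genes) summed to between 939 and 2098 FPKM with Col1a2 below 1 FPKM in every group, and smooth muscle and pericyte markers (8 genes) to between 878 and 2047. Endothelial markers (8 genes) reached at most 20.5 FPKM in sum, macrophage markers (9 genes) 24.8 and Schwann cell markers (4 genes) 5.89. Among these markers Vwf, Cd163, Ptprc and Sox10 were below 1 FPKM in every group. In bulk RNA, fewer cells of a type and less RNA per cell cannot be told apart, and which cells held the cell cycle transcripts was not measured.

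One group stood above the other 5. In 49 of the 53 genes the highest of the 6 levels was that of vehicle at 48 h of PE. The 4 exceptions were Tyms (highest in vehicle at 0 h), Cdk6 (vehicle at 4 h), Cdk4 (SR9009 at 0 h) and Ccnd3 (SR9009 at 48 h). The lowest level was that of SR9009 at 4 h in 34 genes and that of SR9009 at 48 h in 8. These counts were not made over all genes or after rescaling. Vehicle at 48 h also had the largest sum of FPKM over all genes (710198). Relative to vehicle at 0 h, the median over the 53 genes was -0.23 in vehicle at 4 h and 0.98 in vehicle at 48 h. In the SR9009 cultures the same median was -0.08 at 0 h, -0.50 at 4 h and -0.30 at 48 h.

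**Figure D1:**
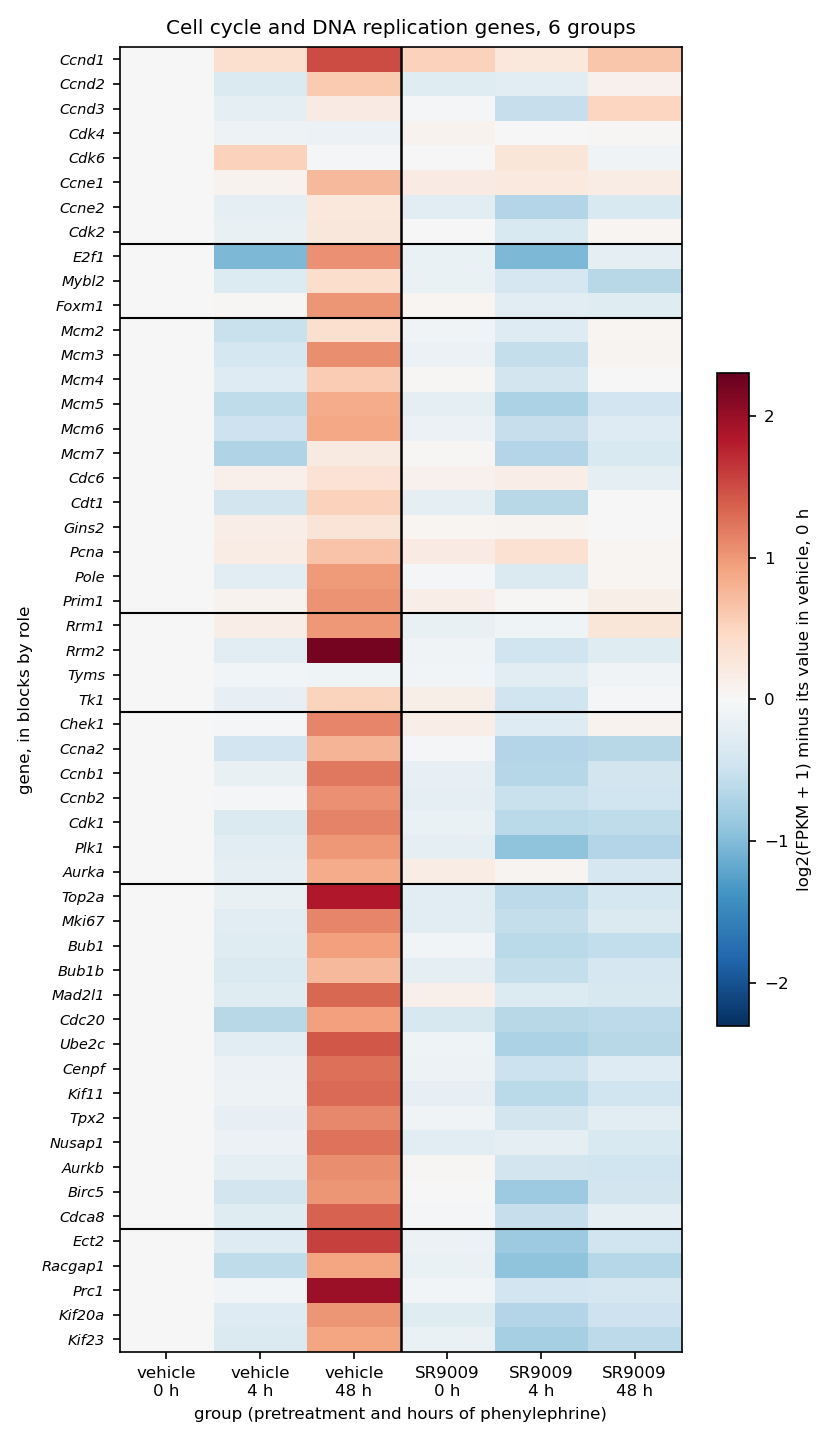
Each row is 1 of the 53 genes, in blocks by role, and each column is 1 of the 6 groups. Colour gives log2(FPKM + 1) minus its value in vehicle at 0 h; the vehicle 48 h column is the darkest red, up to 2.20 for Rrm2, and most SR9009 4 h and 48 h cells are pale blue.

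The size of the differences varied with the phase in which a gene acts. At 48 h of PE in vehicle, against 0 h, 24 of the 53 genes were higher and 0 lower, where 4.86% of all genes tested were higher and 3.95% lower by the same rule. Of 9 genes of G1 and the G1/S step 2 were higher (median 0.27), of 17 S-phase genes 4 (median 0.66), and of 27 genes of G2 and M 18 (median 1.07). SR9009 against vehicle at 48 h gave 32 genes lower and 0 higher, where 4.55% of all genes tested were lower and 2.33% higher. These were 1 of the 9 G1 genes (median -0.52), 4 of the 17 S-phase genes (median -0.62) and 27 of the 27 genes of G2 and M (median -1.55, from -2.35 to -1.04). The medians over all genes were 0.01 and -0.04 in the same comparisons, which share the vehicle 48 h group. Rescaling FPKM to equal sums lowered the first count from 24 to 12 and the second from 32 to 30. The genes no longer higher were E2f1, Foxm1, Mcm3, Prim1, Chek1, Ccnb2, Cdk1, Mki67, Tpx2, Aurkb, Birc5 and Kif20a, which left 1 of 9, 1 of 17 and 10 of 27 by phase.

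**Figure D2:**
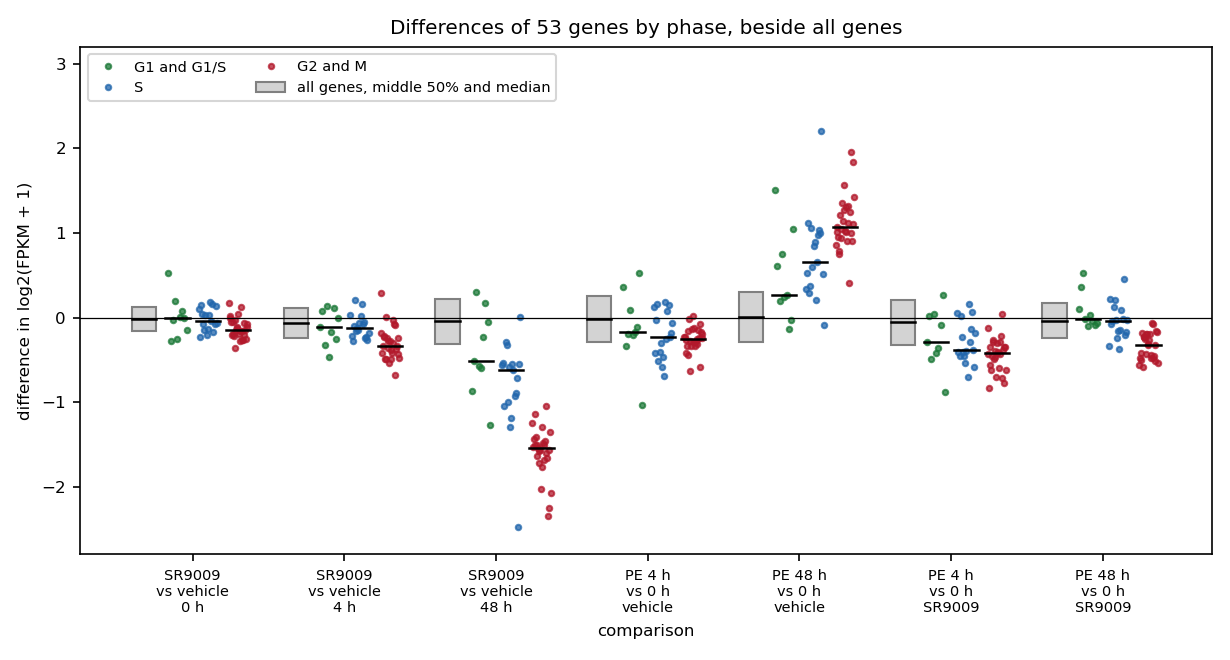
Points are the 53 genes by phase in 7 comparisons, as differences in log2(FPKM + 1), with a black line at each median; grey boxes span the middle 50% of all genes. The genes of G2 and M lie around 1.07 for 48 h against 0 h of PE in vehicle and around -1.55 for SR9009 against vehicle at 48 h, while the grey boxes stay near 0.

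Because all 27 genes of G2 and M were lower together with SR9009 at 48 h, stretches of promoters from the 3 phases are shown here, from RefSeq (assembly GRCr8). RefSeq windows from 250 bases before to 50 bases after the transcription start were found for 39 of the 53 genes. They were searched on both strands for the CCAAT box (CCAAT), for the cell cycle genes homology region, or CHR (TTTGAA or TTCGAA), and for an E2F motif (TTTCGCGC, TTTGGCGC, TTTCCCGC or TTTGCCGC). In other studies the first pair marks promoters of G2 and M genes bound by NF-Y and by the DREAM and MYBL2 complexes. Motif matches may overlap, and a match is a description of letters, not a site or a cause. The lines below give bases just before the start of 10 genes, 5′ to 3′ on the gene's strand, with motif matches in capitals. The stretches differ in length, and matches farther from the start are not shown. These include an E2F match in Cdk1 (first base at -133) and further matches in Top2a, Mki67, Mcm5 and Prc1. Cdk1 to Ccnb1 are genes of G2 and M, Mcm5 to Tyms are S-phase genes, and Cdk4 is a G1 kinase with no match in the stretch shown.
Cdk1: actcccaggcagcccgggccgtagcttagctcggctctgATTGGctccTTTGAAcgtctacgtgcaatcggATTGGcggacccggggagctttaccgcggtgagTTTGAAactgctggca
Cdc20: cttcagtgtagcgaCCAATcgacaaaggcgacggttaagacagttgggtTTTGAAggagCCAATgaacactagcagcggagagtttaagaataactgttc
Top2a: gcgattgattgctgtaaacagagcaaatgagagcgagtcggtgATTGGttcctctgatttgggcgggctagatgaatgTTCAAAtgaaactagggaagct
Prc1: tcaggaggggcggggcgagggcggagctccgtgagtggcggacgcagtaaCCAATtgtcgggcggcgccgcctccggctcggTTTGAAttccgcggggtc
Mki67: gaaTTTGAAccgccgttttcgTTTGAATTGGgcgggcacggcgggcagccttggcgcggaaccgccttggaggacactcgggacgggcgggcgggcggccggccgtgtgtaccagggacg
Ccnb1: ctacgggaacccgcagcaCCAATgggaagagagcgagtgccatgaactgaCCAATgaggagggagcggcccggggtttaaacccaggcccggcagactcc
Mcm5: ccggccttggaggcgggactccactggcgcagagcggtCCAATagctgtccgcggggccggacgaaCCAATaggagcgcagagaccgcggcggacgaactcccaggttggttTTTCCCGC
Mcm6: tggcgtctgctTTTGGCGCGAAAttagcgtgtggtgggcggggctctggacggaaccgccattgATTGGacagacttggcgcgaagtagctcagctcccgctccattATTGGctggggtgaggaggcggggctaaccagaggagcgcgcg
Tyms: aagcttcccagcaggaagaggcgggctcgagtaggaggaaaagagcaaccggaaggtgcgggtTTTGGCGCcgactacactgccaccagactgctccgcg
Cdk4: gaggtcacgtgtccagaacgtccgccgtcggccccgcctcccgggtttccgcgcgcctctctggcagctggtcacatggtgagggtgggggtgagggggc
Their positions on GRCr8 are Cdk1 at chr20:19265173-19265292 (plus strand), Cdc20 at chr5:137255800-137255899 (minus strand), Top2a at chr10:84473094-84473193 (minus strand), Prc1 at chr1:143659381-143659480 (plus strand), Mki67 at chr1:199952594-199952713 (minus strand), Ccnb1 at chr2:33655226-33655325 (minus strand), Mcm5 at chr19:13488693-13488812 (plus strand), Mcm6 at chr13:42404353-42404502 (minus strand), Tyms at chr9:120776084-120776183 (minus strand) and Cdk4 at chr7:64771353-64771452 (plus strand).

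The share of windows with each motif was counted by phase, with no test. Of 21 windows of G2 and M genes, 16 held CCAAT (76.2%), 15 a CHR (71.4%) and 1 the E2F motif (4.76%). Of 14 windows of S-phase genes, 9 held CCAAT (64.3%), 3 a CHR (21.4%) and 9 the E2F motif (64.3%). The 4 G1 windows held CCAAT in 2 cases and the other motifs in 0. Among the 8325 windows of genes that average 1 FPKM or more, the shares were 37.6% for CCAAT, 13.1% for a CHR and 4.1% for the E2F motif. A window with both CCAAT and a CHR was found for 13 of the 21 G2 and M genes (61.9%) and in 5.3% of the 8325 windows. In Mki67 the second CHR and the CCAAT box, on opposite strands, share a base, and in Mcm6 a pair of E2F matches on opposite strands overlap. The 15 genes with CCAAT and a CHR had a median SR9009 difference at 48 h of -1.57 (from -2.35 to -0.55). The 7 with an E2F motif and no CHR had -0.997 (from -1.29 to 0.00), and the 14 with neither a CHR nor an E2F motif -0.76 (from -1.76 to 0.30). Kif11 and Ccnb1 belong to this last set with differences of -1.76 and -1.64. Their windows, and that of Kif20a in the same set, hold CCAAT. Bub1, Aurka and Mybl2 are in this set too, with none of the motifs in their windows. They are also G2 and M genes that were lower with SR9009 at 48 h. Bub1b, Mad2l1 and Mcm2, with a CHR and no CCAAT, are in none of these sets. Of the 15 genes with CCAAT and a CHR 13 belong to G2 and M, and the 7 with E2F and no CHR are S-phase genes. Motif content and phase thus largely coincide here, and their parts in the differences were not tested.

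Among the G1 cyclins and kinases, which start the cycle, 1 of 8 was higher in vehicle at 48 h of PE and 0 of 8 were lower with SR9009 at 48 h. The shares of all genes in these comparisons, here and for the roles below, were 4.86% and 4.55%. Ccnd1 (chromosome 1, 218090750 to 218100272, rn6), the D cyclin most tied to growth factor signals, was at 16.9, 22.0 and 49.9 FPKM at 0, 4 and 48 h in vehicle. With SR9009 it was at 24.9, 20.3 and 26.8 FPKM. Its vehicle 48 h level stood apart from the other 5, and its SR9009 level at 0 h was above that of vehicle with bounds that did not overlap (difference 0.53, 0.19 to 0.87), as in 3.94% of all genes. From 0 to 48 h the difference was 1.5 (1.14 to 1.86) in vehicle and 0.10 (-0.27 to 0.47) with SR9009. At 48 h the SR9009 difference of -0.87 (-1.26 to -0.48) did not reach the size rule.

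The other G1 genes varied less. Ccnd2 was at 125, 98.9 and 191 FPKM in vehicle and at 103, 105 and 133 FPKM with SR9009. Ccnd3 was at 106, 92.3 and 121 FPKM in vehicle and at 73.5 FPKM at 4 h and 149 at 48 h with SR9009. Between those last 2 groups Ccnd3 was higher by 1.01 (0.59 to 1.43), though not after median centring. It was the single one of the 53 called between 4 and 48 h with SR9009, where 2.49% of all genes were higher. Cdk4, the kinase that partners the D cyclins, ranged from 84.7 to 98.3 FPKM over the 6 groups, with all bounds overlapping (chromosome 7, 70343008 to 70355555, rn6). Cdk6, its relative, was highest at 4 h of PE in vehicle with 17.9 FPKM and was at 12.2 FPKM at 0 h (0.52, 0.06 to 0.99). Of the E cyclins, Ccne1 had 3.83 FPKM in vehicle at 0 h and 7.14 at 48 h (0.75, 0.27 to 1.24), and Ccne2 11.8 and 14.1 FPKM. Their SR9009 differences at 48 h were -0.58 (-1.06 to -0.10) and -0.60 (-0.93 to -0.27). Cdk2, the partner of the E cyclins, had -0.23 (-0.65 to 0.19).

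The 3 transcription factors measured were each lower with SR9009 at 48 h, and 2 of 3 were higher at 48 h of PE in vehicle. Those were E2f1 and Foxm1, which did not reach the rule with equal sums (0.85 and 0.83). E2f1 (chromosome 3, 150062895 to 150073721, rn6), the activator of S-phase genes, was at 5.94, 2.39 and 13.4 FPKM in vehicle and at 5.24, 2.39 and 4.98 FPKM with SR9009. Both arms thus had the same low level at 4 h, and only the vehicle arm exceeded its 0 h level at 48 h. At 4 h against 0 h E2f1 was lower in vehicle by the size rule (-1.03, -1.53 to -0.54), though not after quantile normalization, and with SR9009 the difference was -0.88 (-1.4 to -0.37). It was the single one of the 53 genes called at 4 h in vehicle, where 2.32% of all genes were lower. At 48 h its SR9009 difference was -1.26 (-1.70 to -0.83). Foxm1, the activator of mitotic genes, was at 3.60, 3.67 and 8.32 FPKM in vehicle and at 3.74, 2.86 and 2.80 FPKM with SR9009, a difference at 48 h of -1.29 (-1.73 to -0.87). Mybl2, the MYB protein of the same program, was at 2.93, 2.18 and 4.23 FPKM in vehicle and at 2.53, 2.03 and 1.54 FPKM with SR9009. Its SR9009 difference at 48 h, -1.04 (-1.48 to -0.61), did not reach the rule under any of the 3 other scalings.

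Of 12 genes for licensing and for the replication fork, 2 were higher at 48 h of PE in vehicle and 2 were lower with SR9009 at 48 h, although the SR9009 difference was below 0 in all 12. The bounds of SR9009 and vehicle did not overlap in 9 of these 12, with SR9009 on the lower side, which was so in 17.3% of all genes. Mcm5 (chromosome 19, 14523570 to 14560830, rn6), a subunit of the helicase, was at 9.33, 5.90 and 17.6 FPKM in vehicle and at 7.98, 5.21 and 6.6 FPKM with SR9009. Mcm6, another subunit, was at 11, 7.62 and 21.2 FPKM in vehicle and at 9.89, 7.28 and 8.73 FPKM with SR9009. These 2 were the genes called lower, with differences of -1.29 (-1.73 to -0.85) and -1.19 (-1.58 to -0.80). Subunits of the same helicase covered a wide range, down to Mcm2 at -0.32 (-0.72 to 0.07) and Mcm7 at -0.55 (-0.96 to -0.14). At 4 h all 6 subunits were below their 0 h level in both arms, none by the size rule. Mcm7 went from 24.2 FPKM at 0 h to 14.6 at 4 h in vehicle and from 24.7 to 14.8 with SR9009 (-0.69 and -0.71).

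The 2 fork genes called higher in vehicle at 48 h were Mcm3 (1.06, 0.67 to 1.46) and the primase subunit Prim1 (1.03, 0.62 to 1.45), and neither was higher after rescaling to equal sums. Pole, the catalytic subunit of the leading strand polymerase, came just short of the rule in both 48 h comparisons, with 0.98 (0.61 to 1.34) for PE and -0.92 (-1.29 to -0.56) for SR9009. Pcna, the sliding clamp, was at 62.1, 70.5 and 98.9 FPKM in vehicle and at 70.9, 79.1 and 63.9 FPKM with SR9009, so that its order in the arms crossed between 4 and 48 h. Its difference at 48 h was -0.62 (-1.03 to -0.21). Gins2, part of the active helicase, had 11.2 FPKM at 0 h and 14.0 at 48 h in vehicle, and its bounds overlapped in both 48 h comparisons. The origin licensing factors Cdc6 and Cdt1 had SR9009 differences at 48 h of -0.56 (-0.98 to -0.15) and -0.54 (-1.1 to 0.01).

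Of 4 enzymes of nucleotide supply, 1 was higher at 48 h of PE in vehicle and 1 was lower with SR9009 at 48 h, in both cases Rrm2. Rrm2 (chromosome 6, 43884627 to 43890818, rn6), the regulatory subunit of ribonucleotide reductase that limits deoxynucleotide production in S phase, was at 28.3, 23.9 and 133 FPKM in vehicle. With SR9009 it was at 26.7, 20.2 and 23.1 FPKM. The vehicle 48 h level was thus far above the other 5, which lay between 20.2 and 28.3 FPKM. The difference was 2.20 (1.80 to 2.6) for PE at 48 h in vehicle cultures, and -2.48 (-2.88 to -2.08) for SR9009 at 48 h, a level 5.58-fold lower on the FPKM + 1 scale. It was the largest in size of the 53 in each of these comparisons. Rrm1, the catalytic subunit of the same enzyme, was at 50.1, 55.5 and 101 FPKM in vehicle and at 44.6, 46.8 and 61.3 FPKM with SR9009 (-0.71, -1.13 to -0.28 at 48 h). Tk1, the thymidine kinase of the salvage route, had -0.55 (-0.97 to -0.14) at 48 h. Tyms, thymidylate synthase, had 30.5 FPKM in its lowest group and 36.4 in its highest, and its SR9009 difference at 48 h was 0.00 (-0.38 to 0.38).

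**Figure D3:**
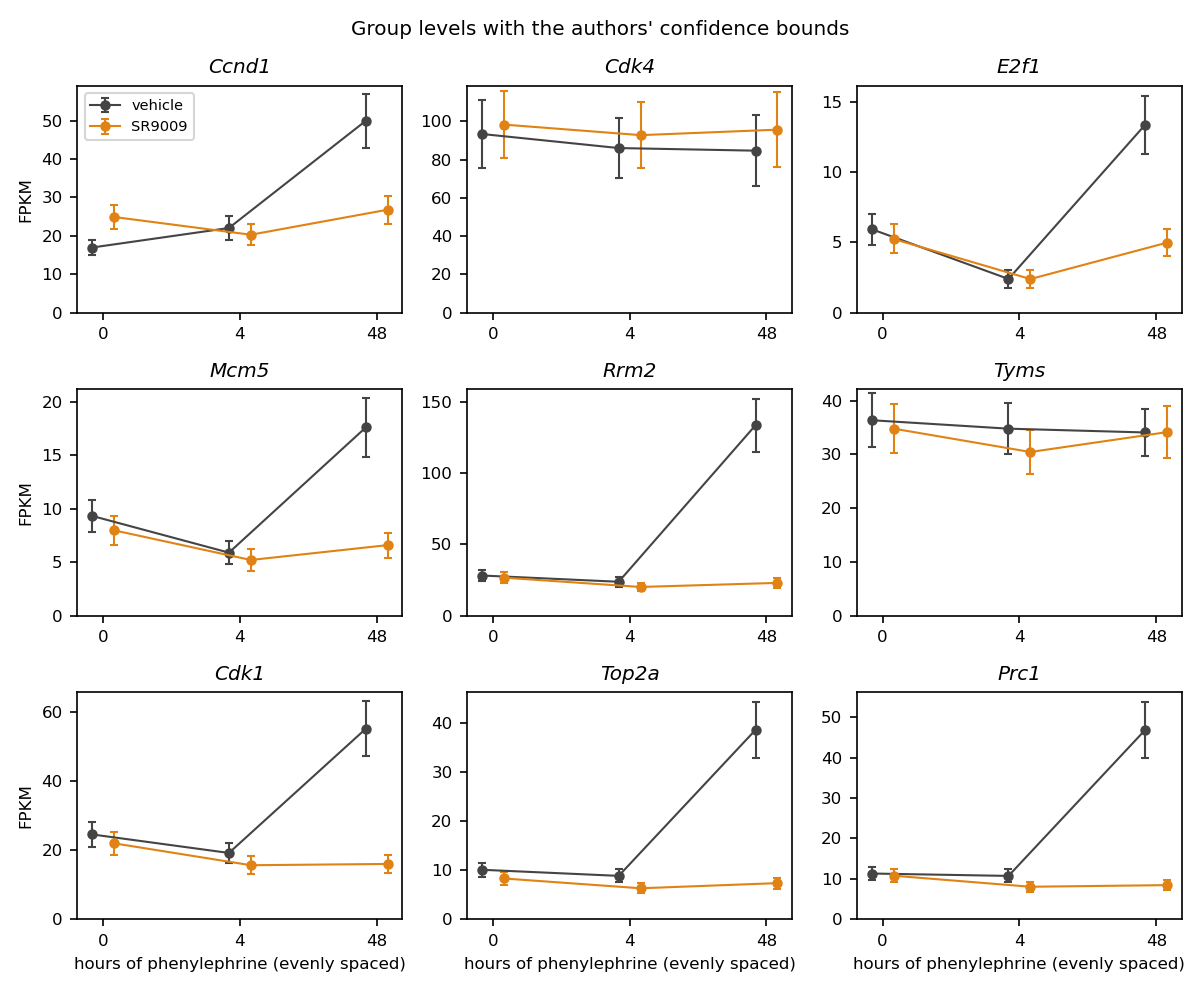
FPKM of 9 genes at 0, 4 and 48 h of PE (evenly spaced) in vehicle and SR9009 cultures, with the authors' confidence bounds as bars. In Rrm2, Top2a and Prc1 the vehicle 48 h point (133, 38.6 and 46.9 FPKM) stands far above the rest, while Cdk4 and Tyms show overlapping bars throughout.

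All 7 genes of the S-phase checkpoint and of mitotic entry were lower with SR9009 at 48 h (median -1.51), and 4 of 7 were higher at 48 h of PE in vehicle. With equal sums 1 of 7, Ccnb1, was higher. Cdk1 (chromosome 20, 20576377 to 20591509, rn6), the kinase that drives entry into mitosis, was at 24.5, 19.1 and 55.1 FPKM in vehicle and at 21.9, 15.6 and 16 FPKM with SR9009. The arms had overlapping bounds at 0 and 4 h and stood apart at 48 h (-1.73, -2.16 to -1.29). Its partner Ccnb1, cyclin B1, was at 12.4, 11 and 30.2 FPKM in vehicle and at 10.7, 7.54 and 9.01 FPKM with SR9009 (-1.64, -2.0 to -1.29 at 48 h). Ccna2, cyclin A2, was at 14.1, 10.1 and 25 FPKM in vehicle and at 13.6, 8.46 and 8.75 FPKM with SR9009. Ccnb2 had a difference of -1.51 at 48 h, with the uncertain locus described above.

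The kinases of mitotic entry differed at the early time. Plk1 was at 8.21, 6.77 and 17.4 FPKM in vehicle and at 6.97, 3.84 and 4.79 FPKM with SR9009. Its bounds at 4 h did not overlap between the arms (-0.68, -1.20 to -0.17), the largest difference in size of the 53 genes at that time. Aurka, the kinase of spindle poles, had the opposite sign at 4 h, with 7.79 FPKM in vehicle and 9.72 with SR9009 (0.29, -0.15 to 0.73). At 48 h Aurka was nevertheless lower with SR9009, at 6.87 against 17.6 FPKM (-1.24, -1.68 to -0.81). Chek1, the checkpoint kinase that answers stalled forks, was lower with a difference of -1.04 (-1.47 to -0.63), which was no longer called under any of the 3 other scalings.

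The 14 genes of chromosomes, spindle and spindle checkpoint were each lower with SR9009 at 48 h (median -1.56), and 11 of 14 were higher at 48 h of PE in vehicle (7 of 14 with equal sums). Top2a (chromosome 10, 86901467 to 86930949, rn6), which untangles sister chromatids, was at 10.1, 8.82 and 38.6 FPKM in vehicle and at 8.29, 6.29 and 7.34 FPKM with SR9009. It was 3.58-fold higher at 48 h than at 0 h in vehicle (1.84, 1.44 to 2.24) and 4.75-fold lower with SR9009 than vehicle at 48 h (-2.25, -2.65 to -1.84), on the FPKM + 1 scale. Ube2c, the ubiquitin-conjugating enzyme of the anaphase-promoting complex, was at 21.5, 18 and 59.5 FPKM in vehicle and at 19.9, 12.6 and 13.4 FPKM with SR9009. Mki67, widely used to mark cycling cells, was at 5.51, 4.47 and 13.2 FPKM in vehicle and at 4.42, 3.44 and 4.16 FPKM with SR9009. In each of these 3 the SR9009 level at 48 h was below that of vehicle at 0 h.

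The other checkpoint and spindle genes were likewise highest in vehicle at 48 h. Mad2l1, which holds anaphase until kinetochores attach, was at 11.3, 9.19 and 29.8 FPKM in vehicle and at 12.4, 8.96 and 8.60 FPKM with SR9009. Cdc20, which Mad2l1 holds back, was at 20.0, 12.5 and 39.2 FPKM in vehicle and at 15.3, 12.6 and 12.8 FPKM with SR9009, so the arms were level at 4 h. Kif11, the motor that pushes spindle poles apart, had SR9009 differences of -0.19 at 0 h, -0.49 at 4 h and -1.76 at 48 h. The checkpoint kinases Bub1 and Bub1b had -1.51 and -1.14 at 48 h, and the chromosomal passenger genes Aurkb, Birc5 and Cdca8 had -1.53, -1.44 and -1.58. Cenpf, Tpx2 and Nusap1 lay between -1.60 and -1.36.

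The 5 genes of cytokinesis were each lower with SR9009 at 48 h (median -1.57). At 48 h of PE in vehicle 3 of 5 were higher, and with equal sums 2 of 5, Ect2 and Prc1. Prc1 (its promoter is shown above), which bundles the microtubules of the central spindle, was at 11.3, 10.7 and 46.9 FPKM in vehicle and at 10.7, 8.01 and 8.41 FPKM with SR9009. Its differences were 1.96 (1.55 to 2.37) for PE at 48 h in vehicle cultures, and -2.35 (-2.75 to -1.94) for SR9009 at 48 h. Ect2, the exchange factor that places the contractile ring, was at 7.39, 5.84 and 24.0 FPKM in vehicle and at 6.68, 3.72 and 5.13 FPKM with SR9009. Racgap1 and Kif23, which together form the centralspindlin complex, had SR9009 differences at 48 h of -1.57 (-2.01 to -1.13) and -1.50 (-1.91 to -1.10), and Kif20a -1.48 (-2.18 to -0.82).

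**Figure D4:**
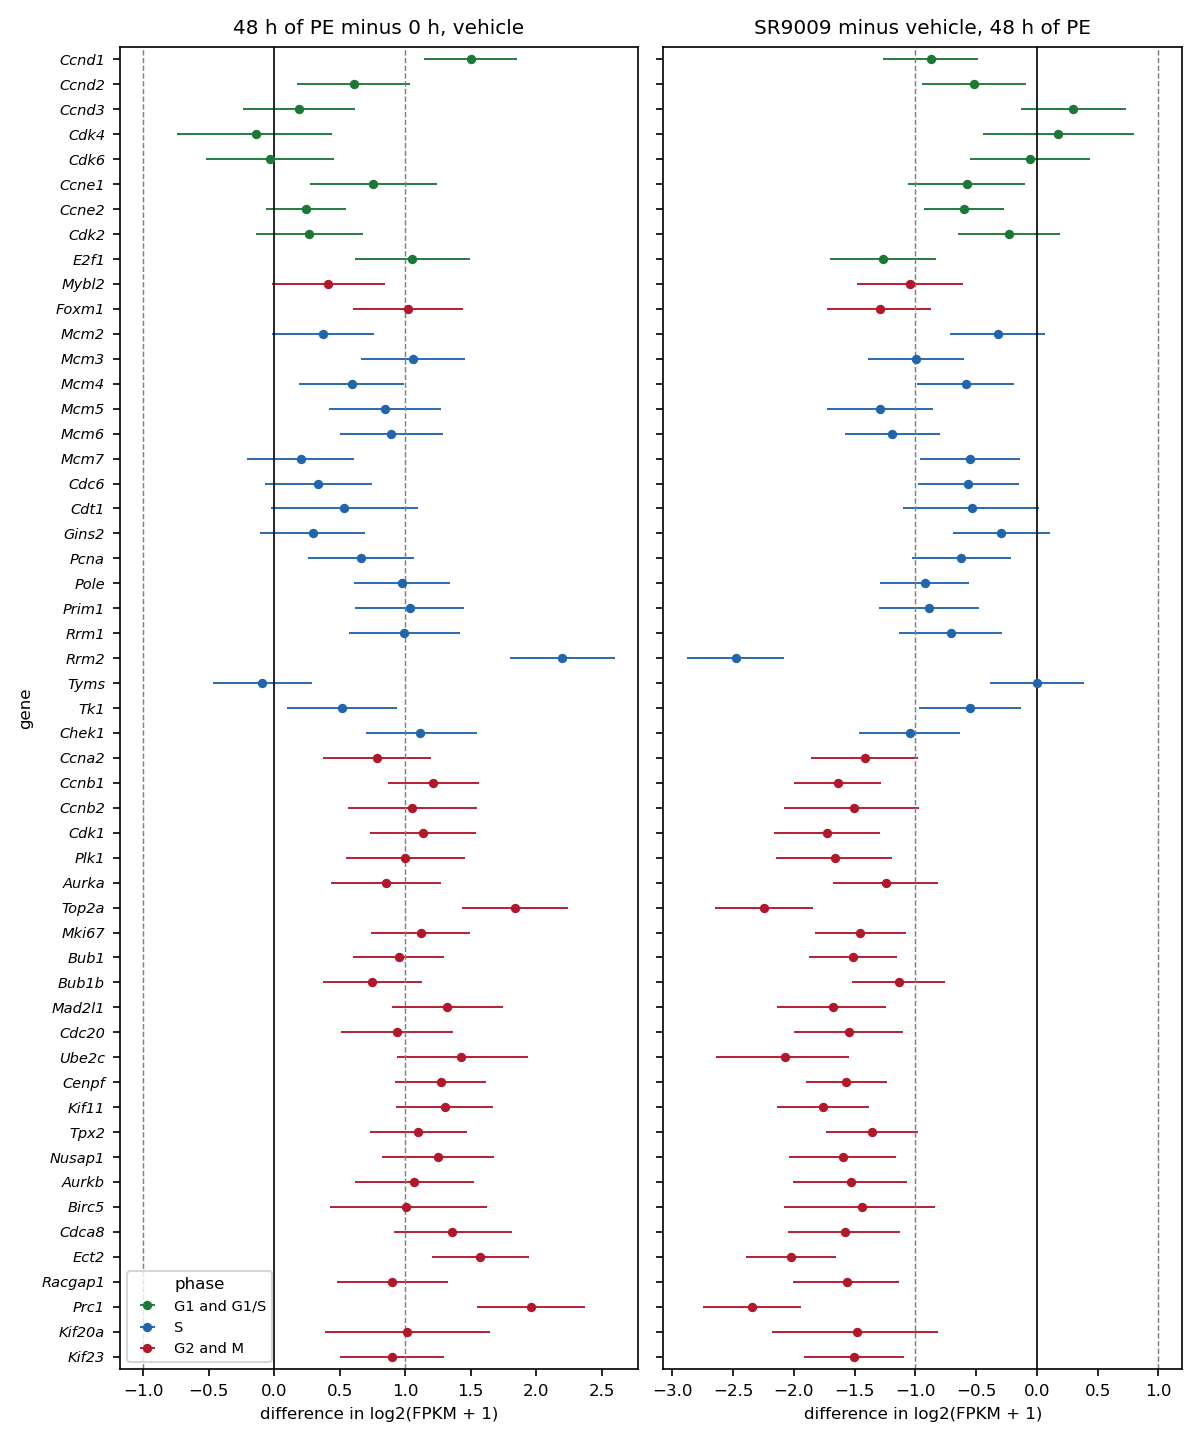
Differences in log2(FPKM + 1) for 48 h against 0 h of PE in vehicle (left) and for SR9009 against vehicle at 48 h (right), coloured by phase; bars are the widest range the authors' bounds allow and dashed lines mark -1 and 1. All 27 genes of G2 and M lie left of -1 on the right, with Prc1 at -2.35, while Cdk4, Tyms and Ccnd3 lie at or above 0.

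SR9009 differences were small before PE and at 4 h. At 0 h, after SR9009 alone, 0 of 53 genes were higher and 0 lower, where 0.499% and 0.566% of all genes were. The median was -0.08, against -0.01 over all genes, and Ccnd1 was the single gene with bounds apart. At 4 h again 0 were called, where 0.499% of all genes were higher and 1.05% lower. There 44 of 53 differences were below 0, against 59.1% of all genes, and 8 had bounds apart on the lower side, against 10.4% of all genes. The median was -0.23 over the 53 genes and -0.06 over all genes, with -0.11 in G1, -0.12 in S and -0.33 in G2 and M. Of the genes near 0 at 4 h, E2f1, Mybl2, Mcm6, Pole, Prim1 and Mad2l1 changed sign with the scaling. At 48 h, 50 of 53 differences were below 0 and 45 had bounds apart on the lower side, against 54.7% and 17.3% of all genes, and Cdk6 (-0.06) alone changed sign with the scaling. Across the 53 genes the 4 h and 48 h differences, which share no group, had a Pearson r of 0.48 (Spearman 0.54), and across 10410 genes 0.05 (0.03). These are descriptions over genes, which are not independent and share the same libraries.

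The time course with PE differed between the arms. In vehicle at 4 h, 44 of 53 genes were below their 0 h level, against 51.5% of all genes (median -0.23, all genes -0.02), though 13 of the 53 changed sign with the scaling. Bounds were apart on the lower side in 8, against 13.9% of all genes, and on the higher side in 2, against 14%. With SR9009 at 4 h, 45 were below their 0 h level, against 56% of all genes (median -0.39), and 7 of the 53 changed sign with the scaling. Bounds were apart on the lower side in 21, against 15.9% of all genes. None was called (0 of 53), where 2.65% of all genes were lower and 1.82% higher. Between 4 and 48 h 33 of 53 genes were higher in vehicle (median 1.23), where 3.84% of all genes were. With SR9009 the same median was 0.19. At 48 h against 0 h with SR9009, 0 of 53 were higher or lower, where 1.26% and 1.16% of all genes were. That median was -0.19, and 27 of 27 genes of G2 and M were below their 0 h level, against 54.8% of all genes. Of these 7 had bounds apart, against 9.54% of all genes, and Mki67 (-0.07) changed sign with the scaling.

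In 41 of the 53 genes the 48 h level was above that of 0 h in vehicle and below it with SR9009, which was so in 25% of all genes. Among them Ccne1, Mcm4, Prim1, Chek1 and Mki67 changed sign with the scaling in the SR9009 arm, and Mcm7 in vehicle. Bounds were apart in both arms, higher in vehicle and lower with SR9009, in 6 of them (Ccna2, Aurka, Bub1, Mad2l1, Racgap1 and Kif23) and in 1.46% of all genes. Across the 53 genes the 48 h differences of the arms, which share no group, had a Pearson r of -0.26 (Spearman -0.27), against 0.25 (0.18) across 10410 genes. The interaction, the 48 h difference with SR9009 minus that in vehicle, was at most -1 with a range excluding 0 in 31 of 53 genes, against 5.33% of all genes. These were 2 of 9 genes of G1, 5 of 17 of S and 24 of 27 of G2 and M, with medians of -0.24, -0.69 and -1.43. With equal sums they were 1, 2 and 24. Rrm2 had -2.40 (-3.21 to -1.60), Prc1 -2.28 (-3.09 to -1.47), Top2a -2.0 (-2.78 to -1.20) and Ccnd1 -1.4 (-2.13 to -0.67).

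Genes of the same pathways outside the 53 were counted by list, where 4.86% of all genes were higher at 48 h of PE in vehicle and 4.55% lower with SR9009 at 48 h. Of 43 other replication genes 4 were higher at 48 h of PE in vehicle, namely Gmnn (1.59), Asf1b (1.18), Cdc7 (1.1) and Fen1 (1.05), and 6 were lower with SR9009 at 48 h (median -0.43). With equal sums Gmnn was the single one higher. Gmnn encodes geminin, which blocks relicensing, and Fen1 the flap endonuclease of the lagging strand. Of 56 other mitotic genes 26 (18 with equal sums) were higher in the first comparison and 40 (36) lower in the second (median -1.29). The kinase Nek2, which separates centrosomes, led both with 1.91 and -2.26, and Pbk, Iqgap3 and Depdc1 followed in the second with -2.07, -1.96 and -1.91. Of 17 DNA repair genes 3 were higher with PE in vehicle and 5 were lower with SR9009, and with equal sums 0 and 2. Of 20 ubiquitin ligase genes of the APC/C and SCF, 0 were higher with PE and 1 was lower with SR9009: Fbxo5 (-1.28), an inhibitor of the APC/C. That is a share close to that of all genes.

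The inhibitors of cyclin-dependent kinases went in several directions. Cdkn1c (p57), which arrests cells in development, was at 38.4, 45.3 and 9.37 FPKM in vehicle and at 59.1, 47.0 and 47.5 FPKM with SR9009. It was thus low only in vehicle at 48 h, the group where most of the 53 genes were highest (-1.92 for PE in vehicle and 2.22 for SR9009 at 48 h). Cdkn2b (p15) and Cdkn2c (p18), which bind Cdk4 and Cdk6, were highest in that group. Cdkn2b was at 4.33, 5.27 and 18.3 FPKM in vehicle and at 6.54, 5.69 and 8.12 FPKM with SR9009, and Cdkn2c at 9.37, 6.51 and 15.6 and at 8.63, 5.84 and 6.09 FPKM. Both were lower with SR9009 at 48 h (-1.08 and -1.23), Cdkn2b not with equal sums. Cdkn1a (p21) was at 215, 313 and 197 FPKM in vehicle and at 293, 414 and 186 FPKM with SR9009, and Cdkn1b (p27) went from 49.4 to 28.9 FPKM at 4 h in vehicle and from 54.2 to 27.7 with SR9009. Their SR9009 differences at 48 h were -0.09 and 0.02. Cdkn2a did not exceed 2.53 FPKM.

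A wider list of 25 measured genes held these inhibitors, pocket proteins, DREAM subunits, E2F factors and related genes. Not all of them restrain the cycle. Of the 25 genes, 3 were higher and 2 lower at 48 h of PE in vehicle. Of all genes 4.86% were higher and 3.95% lower in that comparison. With SR9009 at 48 h 1 of the 25 was higher and 5 lower (2 lower with equal sums), against 2.33% and 4.55% of all genes. Gadd45g, a stress-induced growth arrest gene, was at 52.2, 301 and 301 FPKM in vehicle and at 48.5, 131 and 42.7 FPKM with SR9009 (-2.79 at 48 h). It was lower with SR9009 already at 4 h (-1.19), a time at which 0 of the 53 genes were called. Ccng2, a cyclin raised in quiescence, was at 17.8, 3.39 and 7.91 FPKM in vehicle and at 18.2, 3.36 and 14.3 FPKM with SR9009, so its 4 h level was the same in both arms. Rbl1, a pocket protein, had an SR9009 difference at 48 h of -0.70.

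**Figure D5:**
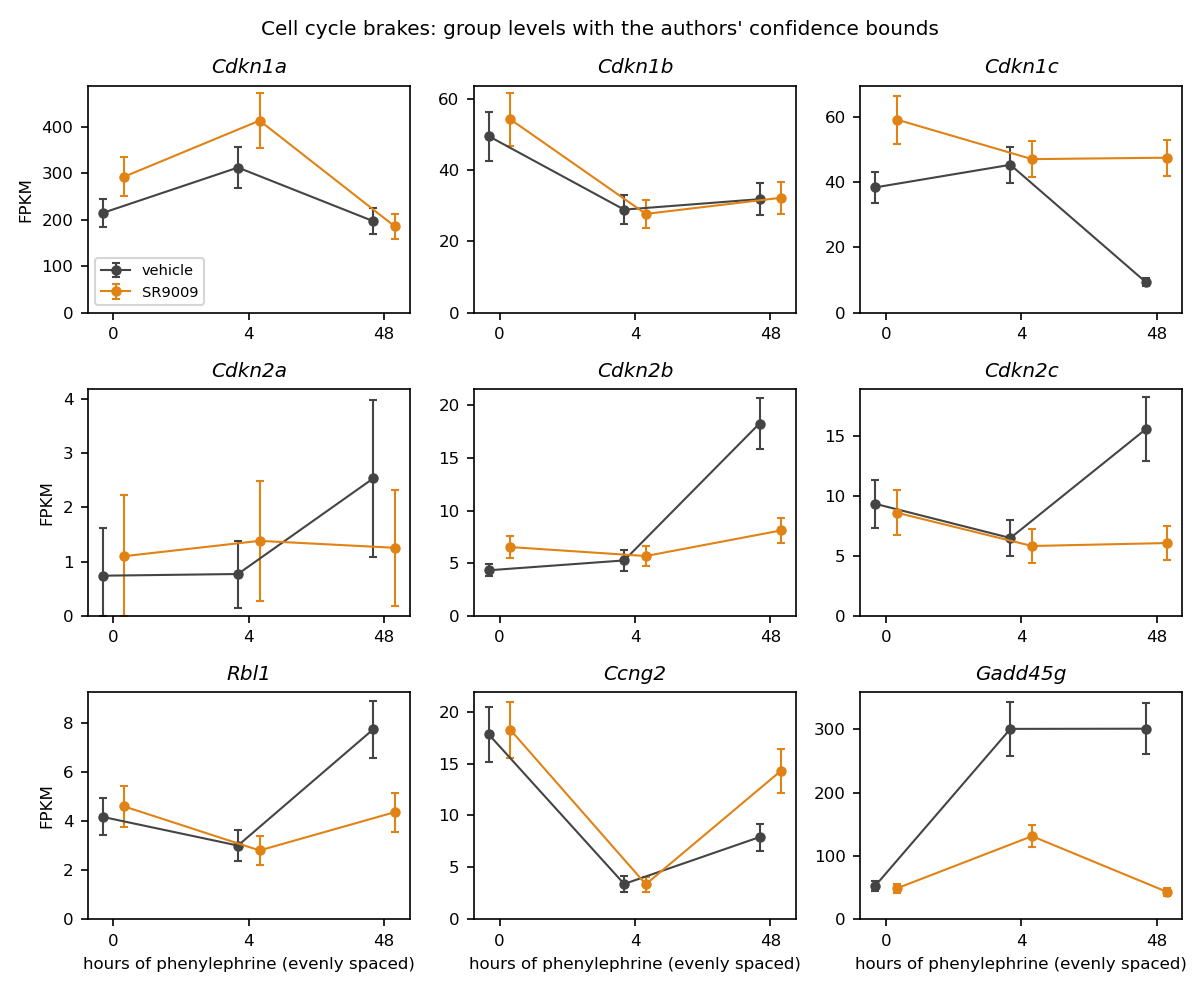
FPKM of 9 genes that restrain the cycle, at 0, 4 and 48 h of PE (evenly spaced) in vehicle and SR9009 cultures, with the authors' confidence bounds as bars. Cdkn1c is low only in vehicle at 48 h (9.37 FPKM), Gadd45g is at 301 FPKM in vehicle at 4 and 48 h, and Cdkn1b runs together in both arms.

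Markers of other cells moved in the same comparisons. At 48 h of PE in vehicle 7 of 9 measured fibroblast genes were lower (median -1.35), where 3.95% of all genes were lower and 4.86% higher. Of 8 smooth muscle and pericyte genes, 4 were higher and 1 lower (median 0.54). The higher ones were Cnn1 (2.67), Cspg4 (2.00), Acta2 (1.12) and Rgs5 (1.08), and Mylk was lower (-1.18). With equal sums 2 of 8 were higher (Cnn1 and Cspg4) and 2 lower (Mylk and Myh11). With SR9009 at 48 h 3 of 9 fibroblast genes were higher (median 0.66), where 2.33% of all genes were higher and 4.55% lower. Of the 9 differences 2 were below 0, and the sum of 10 fibroblast markers was 1324 FPKM, against 1329 in vehicle. Of the 8 smooth muscle and pericyte genes 3 were lower, Cnn1 (-2.65), Acta2 (-1.50) and Cspg4 (-1.46), and 0 higher (median -0.86), with Mylk at 0.34 and Myh11 at 0.31. Of 8 cardiomyocyte genes 0 were called with PE in vehicle (median -0.01) and 1, Pln, was higher with SR9009 (median 0.43). Macrophage genes had a median of -0.46 with SR9009 at 48 h, where they summed to 7.81 FPKM, against 15.5 in vehicle. At 4 h, 3 of 6 macrophage genes and 2 of 8 smooth muscle and pericyte genes were lower with SR9009. At that time 1.05% of all genes were lower. Already at 0 h, before PE, 2 of 6 macrophage genes (C1qa and C1qc) were lower with SR9009, against 0.566% of all genes. Macrophage genes then summed to 9.47 FPKM with SR9009 and 24.8 in vehicle. Bounds at 0 h were apart on the lower side in 6 of 6 macrophage, 5 of 8 cardiomyocyte and 3 of 9 fibroblast genes. This was so in 5.89% of all genes. From 0 to 48 h with SR9009, 3 of 8 cardiomyocyte genes were higher (Actn2, Ryr2 and Tnnt2), where 1.26% of all genes were. The part of these shifts in the levels of the 53 genes was not tested.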

How the data were processed

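RNA of 18 libraries made with a kit for stranded mRNA was sequenced, in 6 groups of 3 taken from the sample titles, per the labels. FastQC, Trim Galore, TopHat and Cuffdiff appear, with the rat build rn6, per the submitters' processing notes. The deposited table gives 1 FPKM per gene and group and its lower and upper bound of confidence, per the file headers. The authors' scaling between libraries, like the level of confidence, is not given in the sources used here. Values per library were not used here, so the size rule took the place of a test. Differences of log2(FPKM + 1) were computed with Python 3.11.15, numpy 2.4.6 and pandas 2.3.3, on genes that average 1 FPKM or more. Values with the status HIDATA were treated as missing, no difference was computed against a listed 0, and a value outside its own bounds was not called. None of these cases touched the 53 genes. Any of the 53 genes may be named. From each other list the counts are given, with up to 4 called genes of largest difference and the measured inhibitors of cyclin-dependent kinases. Rbl1 was added after its values were seen. The genes and lists were chosen with earlier results of these data known. Loci are those of the table on rn6, with the first base counted as 1, and promoters are RefSeq windows of GRCr8. The calculation was checked on simulated data.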

Additional observations from a re-analysis of the deposited data

How the results depend on the processing

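Alternatives were a pseudocount of 0.1, no filter on low values, 3 other scalings (equal sums, median centring and quantile normalization), the fold alone without bounds, and a smaller size of 0.58. No paired analysis was possible because the table has 1 value per group and no column per library, and for the same reason no fit leaving out a replicate was run. Counts of called genes among the 53 kept their size in SR9009 against vehicle at 48 h (between 30 and 40, from 32), in the interaction (between 27 and 35, from 31) and in PE 48 h against 4 h in vehicle (between 33 and 44, from 33). Of the 32, 30 were called under every scaling and pseudocount. PE at 48 h in vehicle gave 24 genes, 12 with equal sums, which moved the median of all genes from 0.01 to -0.19, and 40 at the smaller size. PE at 4 h in vehicle gave 1 gene, 0 after quantile normalization and 5 at the smaller size. PE at 4 h with SR9009 gave 0, 1 with the smaller pseudocount (E2f1) and 10 at the smaller size. PE 48 h against 4 h with SR9009 gave 1, 2 with the smaller pseudocount, 0 after median centring and 4 at the smaller size. At that size SR9009 at 4 h (Plk1) and PE at 48 h with SR9009 (Ccna2) each gave 1 in place of 0. No called gene changed direction under any of these alternatives.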
